A study of Mus musculus with 4 samples.

Results

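Chemokines are small secreted proteins that draw leukocytes along a concentration gradient by binding G protein-coupled receptors, and cytokines such as interleukin 6 and leukaemia inhibitory factor signal through paired receptors that activate JAK kinases and STAT factors. In nervous tissue, astrocytes, microglia and neural progenitors can make them, and many of their genes are textbook targets of the transcription factors NF-kappaB, AP-1 and C/EBP. The group described here holds 7 genes: Ccl2 and Ccl7, monocyte-attracting ligands of the CC class; Cxcl1, a neutrophil-attracting ligand of the CXC class; Cxcl12, the ligand of Cxcr4 and Ackr3; Csf1, the growth factor of macrophages and microglia; and the cytokines Il6 and Lif. The members were selected with results of these same arrays in view, on their log2 differences between the lines, so those differences are given as a description without a test. The annotation of the array paired 9 probe sets with 6 of the 7 genes, out of 8236 genes that had a probe set with a single symbol. No value is given for Lif, for which no probe set was found by symbol.

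The samples were 4 clonal lines of c17.2, a mouse neural stem cell line, grown under proliferating conditions, with 1 Affymetrix array for each line. Clone 42 and clone 48 carried a stable Nurr1 transfection, Nurr1 being the nuclear receptor that the gene Nr4a2 encodes. PuroB and puroD carried the empty puromycin vector. All 4 lines had thus been through transfection. On the basis of similar growth, clone 42 had been matched with puroB and clone 48 with puroD. Each line is a single clone, so a difference between groups of 2 lines cannot be told apart from differences that arise among clones, and in these bulk samples fewer expressing cells and less RNA per cell cannot be told apart. The brighter Nr4a2 probe set did not bear out the labels, with signals of 320, 206, 485 and 254 in clone 42, clone 48, puroB and puroD. Whether its probes lie within the transfected sequence could not be checked, so it may not read the transgene. Clones 42 and 48 are therefore called Nurr1-labelled.

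Median signals lay between 125.6 and 160.1 on the 4 arrays. As a measure of background, 15 control probe sets for Bacillus subtilis transcripts had medians of 6.0 to 9.0 and highest signals of 62.7 (clone 42), 39.1 (clone 48), 49.8 (puroB) and 59.1 (puroD). A signal is called above background here where it exceeds that highest control on its own array. The 3' to 5' signal ratio of actin, which rises as RNA degrades, ran from 1.51 in puroB to 2.41 in clone 48 and was 1.68 in clone 42; its part in the results below was not tested. Of 13 neural stem and progenitor markers with a probe set, 8 were above background on all arrays, among them Nes, the intermediate filament nestin (3030 to 3720), while Hes5 was above it on none and Pax6 and Dcx on 1 each. Of the 6 tested, 5 were lower in both Nurr1-labelled clones than in their partners, as were 29.7% of all tested probe sets, and 0 passed in limma. The largest difference among them was that of Fabp7, a fatty acid binding protein of radial glia, with 565 (clone 42), 157 (clone 48), 1293 (puroB) and 1539 (puroD) and a mean log2 difference of -2.24 ± 0.40 (SE, n = 2 clones per group; limma adjusted p = 0.0503). The part of these differences in the chemokine values was not tested.

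The start regions of 5 members were found in a RefSeq-based table (build GRCm38.p6; 250 bases before to 50 bases after the start site). They were searched on both strands for an NF-kappaB pattern (GGGA and TTCC with 2 bases of any kind between them), an AP-1 pattern (TGANTCA) and the NBRE (AAAGGTCA), the element that Nurr1 binds as a monomer. The NF-kappaB pattern was found in 3 of the 5, those of Cxcl1, Csf1 and Il6, and in 1.47% of all 32851 start regions of the table. The AP-1 pattern was found in Il6 and Lif and in 7.81% of all start regions. The NBRE was found in 0 of the 5 and in 1.51% of all. Ccl2 and Ccl7 had no start region in the table, so theirs were not searched and these counts do not cover them. The 3 sequences with an NF-kappaB match are shown because they share it while the signals of their genes, given below, lay at different positions relative to background; capitals mark the NF-kappaB and AP-1 matches. In Cxcl1 the matches on the 2 strands overlap.

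Cxcl1, chr5:90890995-90891294, plus strand: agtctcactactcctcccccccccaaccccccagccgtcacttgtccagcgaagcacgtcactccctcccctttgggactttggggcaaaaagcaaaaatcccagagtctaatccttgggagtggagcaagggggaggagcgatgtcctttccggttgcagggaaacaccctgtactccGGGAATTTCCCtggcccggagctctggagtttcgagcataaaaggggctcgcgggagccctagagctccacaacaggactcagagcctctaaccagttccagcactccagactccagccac

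Csf1, chr3:107760420-107760719, minus strand: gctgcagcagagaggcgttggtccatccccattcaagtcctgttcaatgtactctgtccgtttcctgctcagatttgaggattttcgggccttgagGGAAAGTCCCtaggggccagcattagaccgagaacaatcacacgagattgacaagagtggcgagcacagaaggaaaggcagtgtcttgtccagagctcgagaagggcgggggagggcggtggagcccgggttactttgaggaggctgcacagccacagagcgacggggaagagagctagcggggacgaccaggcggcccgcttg

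Il6, chr5:30012864-30013163, plus strand: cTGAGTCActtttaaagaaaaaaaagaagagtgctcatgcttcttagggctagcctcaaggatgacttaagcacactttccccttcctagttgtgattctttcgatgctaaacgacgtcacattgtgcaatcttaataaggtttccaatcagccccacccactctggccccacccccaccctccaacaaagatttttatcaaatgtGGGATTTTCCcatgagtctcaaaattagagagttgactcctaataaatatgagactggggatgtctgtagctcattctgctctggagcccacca

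Ccl2 and Ccl7, the monocyte attractants, were the members with the widest spread between lines. The Ccl2 signal was 9669 (clone 42), 3914 (clone 48), 2237 (puroB) and 2589 (puroD). Both Nurr1-labelled clones lay above both controls, and clone 42 stood apart from the other three lines. In the matched pairs Ccl2 was 4.32-fold higher in clone 42 than in puroB and 1.51-fold higher in clone 48 than in puroD, while puroB and puroD lay 1.16-fold apart. On the log2 scale these are differences of 2.11 and 0.60, with a mean of 1.35 ± 1.07 (SD, n = 2 pairs), against -0.21 for puroB over puroD.

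Ccl7 had the same order of lines with a steeper step. Its signal was 2367 (clone 42), 187 (clone 48), 99.8 (puroB) and 134 (puroD). The value of clone 42 lay far above the rest, which were separated from each other by small steps. Ccl7 was 23.7-fold higher in clone 42 than in puroB and 1.40-fold higher in clone 48 than in puroD, and puroB and puroD differed by 1.34-fold, nearly as much as the pair of clone 48. The log2 differences were 4.57 and 0.49 (mean 2.53 ± 2.89, SD, n = 2 pairs), and -0.42 for puroB over puroD. Clone 42 exceeded clone 48, which bears the same label, by 12.6-fold for Ccl7 and 2.47-fold for Ccl2. Without clone 42, clone 48 lay above the mean of both controls by a log2 difference of 0.70 for Ccl2 and 0.70 for Ccl7. That contrast sets the pairing aside. Against puroD, its matched line, clone 48 differed by 0.60 and 0.49, and the means of both pairs were 1.35 and 2.53.

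**Figure D1:**
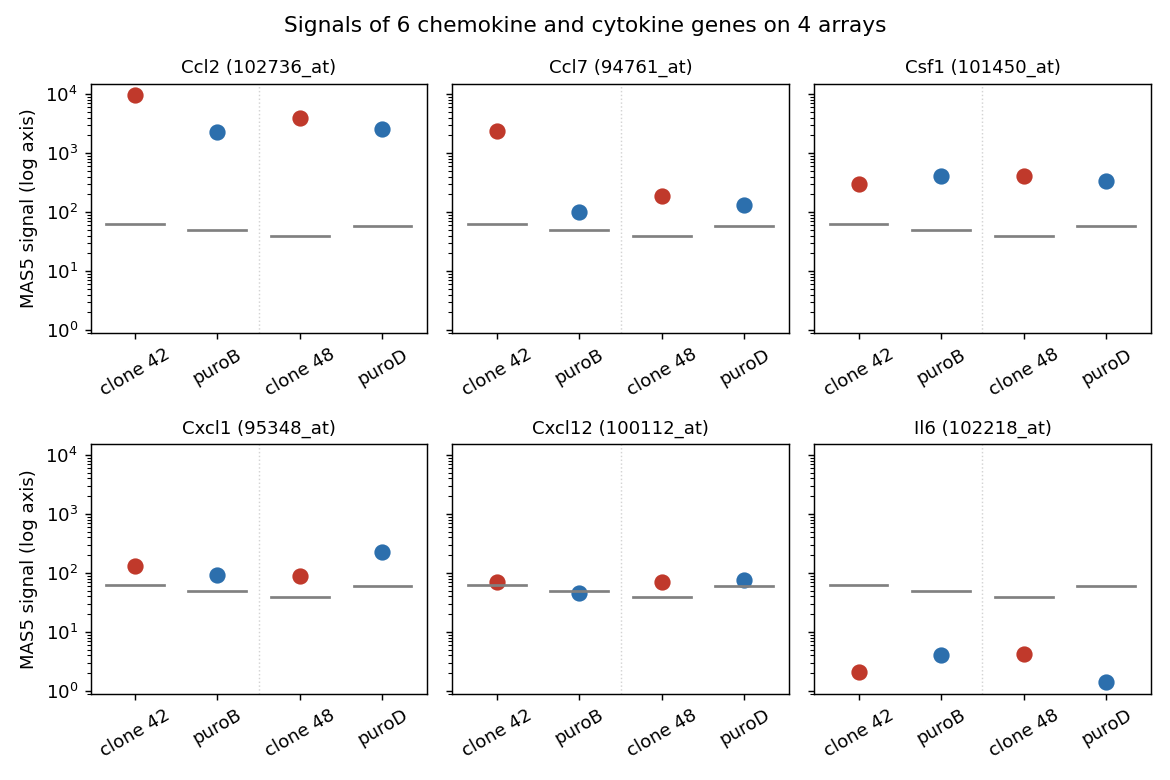
Signals of the brightest probe set of 6 members on a log axis, with a point for each of the 4 arrays (red, Nurr1-labelled clones; blue, control clones; matched lines side by side) and a grey bar at the highest Bacillus subtilis control on that array. Clone 42 has the highest Ccl2 and Ccl7 points (9669 and 2367), whereas all 4 Il6 points, 1.4 to 4.2, lie under the bars.

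Among all 6419 tested probe sets, Ccl7 had rank 1 and Ccl2 rank 18 by log2 difference in the pair of clone 42, and ranks 734 and 474 in the pair of clone 48. Of the 3 members bright enough to be tested, 2 were at least 2-fold higher in clone 42 than in puroB, a class that held 3.57% of tested probe sets, and 0 were at least 2-fold higher in clone 48 than in puroD, against 1.67% of tested probe sets. Both Nurr1-labelled clones lay above both controls for Ccl2 and Ccl7, as for 12.8% of tested probe sets. Higher in both matched pairs were again Ccl2 and Ccl7, as were 21.7% of tested probe sets. Ccl7 had passed the filter only through the Nurr1-labelled clones, since puroB and puroD lay under its limit of 145.05, whereas Ccl2 and Csf1 passed on all 4 arrays. In the fit over both pairs, 0.109% of tested probe sets passed (7 of 6419, limma, Benjamini-Hochberg adjusted p of at most 0.05). Because the members were chosen on this contrast, their outcome in this fit is not given and nothing is read from these shares.

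**Figure D2:**
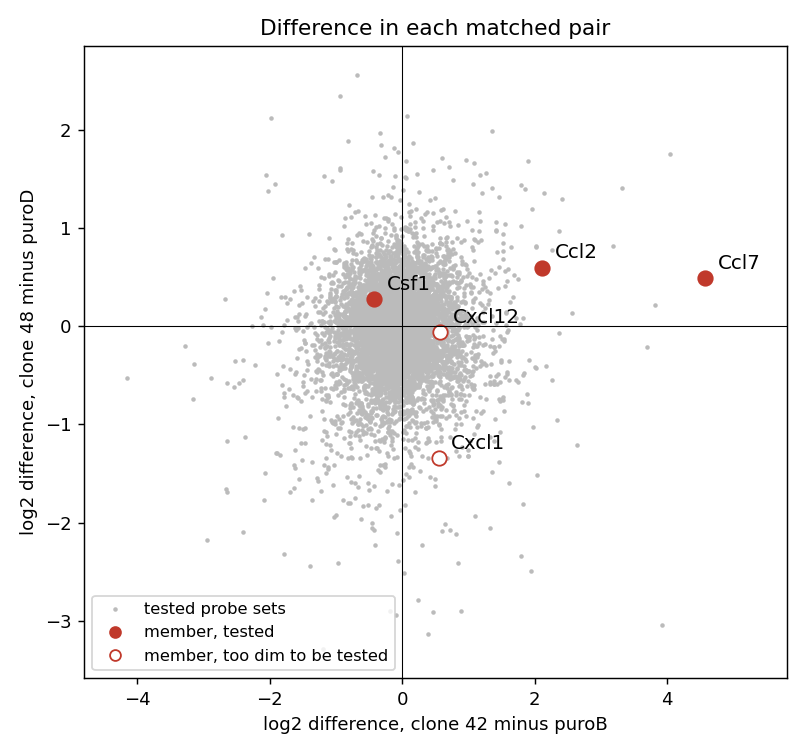
Log2 difference of signal in the pair of clone 42 (horizontal) against that in the pair of clone 48 (vertical) for 6419 tested probe sets (grey) and 5 members (red; open circles mark Cxcl1 and Cxcl12, too dim to be tested). Ccl7 lies farthest to the right of all points, at 4.57, with a vertical value of 0.49.

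Csf1, which supports the survival of macrophages and microglia through the receptor Csf1r, differed little between lines. Its signal was 301 (clone 42), 410 (clone 48), 403 (puroB) and 338 (puroD), and the groups overlapped. The log2 difference was -0.42 in the pair of clone 42 and 0.28 in that of clone 48 (mean -0.07 ± 0.50, SD, n = 2 pairs). The sign of the mean was positive with scaling to the median (0.10). With the pairing set aside, it was also positive without clone 42 (0.15) or without puroB (0.05).

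Cxcl1, which attracts neutrophils through Cxcr2, was highest in a control line. The signal of its brighter probe set was 133 (clone 42), 89.7 (clone 48), 90.7 (puroB) and 228 (puroD). PuroD alone exceeded the filter limit, so the gene was not tested. Clone 42 was 1.46-fold above puroB and clone 48 was 2.54-fold below puroD, and the control clones themselves differed by 2.51-fold. The mean log2 difference was -0.40 ± 1.34 (SD, n = 2 pairs). Without puroD, and with the pairing set aside, it was 0.27. The other Cxcl1 probe set gave 26.1, 41.9, 11 and 55.7 in clone 42, clone 48, puroB and puroD and was above background in clone 48 alone, so that it gives no usable difference.

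Cxcl12, which guides migrating neural precursors through Cxcr4, lay close to background. Its brightest probe set gave 68.8 (clone 42), 71.1 (clone 48), 46.1 (puroB) and 74.3 (puroD), and only puroB was not above background. The log2 differences were 0.58 and -0.06 (mean 0.26 ± 0.45, SD, n = 2 pairs), with -0.69 for puroB over puroD. That of the pair of clone 48 turned to 0.27 with quantile normalization and 0.15 with scaling to the median. The mean was -0.09 without puroB, with the pairing set aside. The other 2 Cxcl12 probe sets had signals of 1.6 to 9.7 and were not above background on any array.

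The Il6 probe set gave 2.1 (clone 42), 4.2 (clone 48), 4.1 (puroB) and 1.4 (puroD). All 4 values lay under the median of the Bacillus subtilis controls on their array, so Il6 was not detectable in any line and no fold is given. Of the 3 genes whose start regions share the NF-kappaB pattern shown above, Csf1 and Cxcl1 were thus above background on every array and Il6 on none.

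Ccl2 and Ccl7 are neighbours in a cluster of CC chemokine genes on mouse chromosome 11. In the RefSeq gene table the order is Ccl2, Ccl7, Ccl11, Ccl12, Ccl8 and Ccl1, with a lncRNA gene that has no probe set between Ccl11 and Ccl12. Ccl11, an eosinophil attractant, gave 16.3 (clone 42), 39.4 (clone 48), 51.2 (puroB) and 49.9 (puroD). It was above background in clone 48 and puroB only, and there by under 2 units, so no order of lines is read from it. Ccl12 (8.3 to 21.9) was not above background in any line. Ccl8, another monocyte attractant, gave 298 (clone 42), 22.9 (clone 48), 100.1 (puroB) and 74.1 (puroD). It was highest in clone 42, as Ccl2 and Ccl7 were, but clone 48 was the lowest line and not above background. Ccl1 was lower in clone 42 than in puroB and nearly level in the other pair (log2 differences -1.76 and 0.07), with 67.3 (clone 42), 138.5 (clone 48), 228 (puroB) and 132 (puroD). None of these 4 neighbours was bright enough on 2 arrays to be tested, so their differences have no test.

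**Figure D3:**
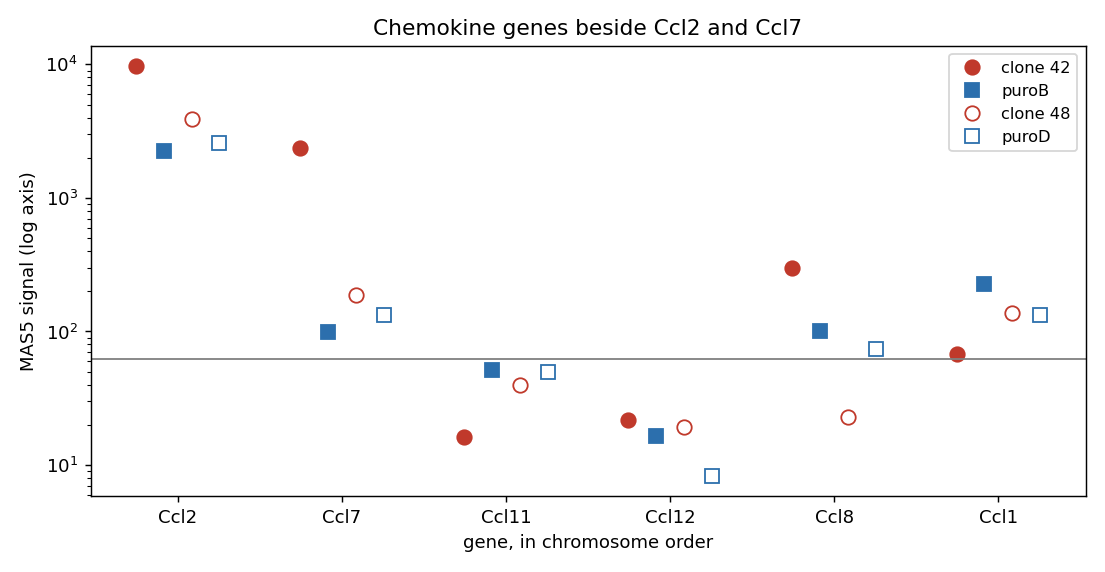
Signals of the brightest probe set of 6 CC chemokine genes in chromosome order, on a log axis, with circles for Nurr1-labelled and squares for control clones (filled, the pair of clone 42; open, the pair of clone 48). The grey line marks 62.7, the highest Bacillus subtilis control over the 4 arrays; clone 42 is the top point for Ccl2, Ccl7 and Ccl8 and lies at 67.3 for Ccl1.

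Of 21 other chemokine ligands with a probe set, 9 were above background on no array and 4 on all arrays. Among the 3 that were tested, Ccl22, Cx3cl1 and Ccl25, 0 passed in limma. Ccl22, a ligand of Ccr4, had a mean log2 difference of -0.66 ± 0.38 (SE, n = 2 clones per group; limma adjusted p = 0.835), with 218 (clone 42), 100.1 (clone 48), 243 (puroB) and 225 (puroD). Cx3cl1, the neuronal fractalkine, had -0.31 and Ccl25 -0.13. Ccl6, too dim to be tested, gave 124 and 72.2 in clones 42 and 48; the controls, at 34.3 (puroB) and 44.4 (puroD), were not above background.

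Other cytokines were mostly at background. Of 30 with a probe set, 19 were above background on no array, including Il1a, Il1b, Tnf and Ifng, the classic inflammatory inducers of Ccl2 and Ccl7. Their highest signals over the 4 arrays were 30.3 for Il1a, 10.2 for Il1b, 38.1 for Tnf and 7.2 for Ifng. The 4 tested were Lta (log2 differences 0.42 and -1.54), Il9 (-0.19 and -0.45), Kitl (0.01 and -0.59) and Csf3 (0.22 and 0.02), and 0 passed in limma. The difference of Lta in the second pair came with a low signal in clone 48 (54.3). Kitl, the ligand of Kit, gave 2169 (clone 42), 1314 (clone 48), 2151 (puroB) and 1980 (puroD), so that clone 48 was the low line.

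The receptors through which the members act were mostly dim. Of 12 receptor genes with a probe set, 5 were above background on no array. Among these, Ccr2, the receptor of Ccl2 and Ccl7, gave 3.9 to 10.5, Cxcr4 3.0 to 15.4 and Cxcr2 22.9 to 39.0. Ccr1, Ccr3, Ackr1 and Ackr2 gave highest signals of 44.4, 66.4, 24.8 and 79.5 over the 4 arrays. Ackr3, the other receptor of Cxcl12, gave 78.7 and 45.0 in clones 42 and 48, while the controls had 11.2 (puroB) and 4.1 (puroD); it was above background in both Nurr1-labelled clones and in neither control, and was too dim to be tested.

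Il6st, the signalling chain gp130 shared by Il6 and Lif, gave 1076 (clone 42), 1003 (clone 48), 1286 (puroB) and 1101 (puroD) (brighter probe set; mean log2 difference -0.20 ± 0.30, SE, n = 2 clones per group; limma adjusted p = 0.983). A second tested Il6st probe set had signals of 176, 80.4, 309 and 204 in the same order and a mean log2 difference of -1.08, so the probe sets disagree on the size. Lifr, the chain that pairs with gp130 to bind Lif, gave 76.9 (clone 42), 77.8 (clone 48), 126 (puroB) and 119 (puroD). Both Nurr1-labelled clones lay below both controls, with log2 differences of -0.71 and -0.62, but Lifr was too dim to be tested. Il6ra (0.82 and -2.12, with clone 48 at the floor) and Csf1r (0.26 and -0.36) went opposite ways in the pairs, and 0 of the 3 tested receptors passed in limma. Another Csf1r probe set, too dim to be tested, was lower in both pairs (-0.65 and -0.18).

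Across all 8 lists of related genes, 69 of 161 measured genes were tested and 0 passed in limma (lowest Benjamini-Hochberg adjusted p = 0.134), with 7 at an unadjusted p under 0.05, a class that held 7.38% of all tested probe sets. Without an intensity trend in the variance prior 0 also passed. Higher in both pairs were 17 and lower in both 18, against 21.7% and 29.7% of all tested probe sets, and the median of their mean log2 differences was -0.01, beside -0.04 over all tested probe sets. These lists were drawn up with earlier results of the data known. The count rose to 1 (Atf3) with scaling to the median and to 2 (Jun and Atf3) with a filter on all 4 arrays.

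AP-1 and C/EBP factors, which bind the control regions of many cytokine genes, held 4 of those 7. Among 14 tested, both pairs were higher for 7 and lower for 2 (21.7% and 29.7% over all tested probe sets), with a median difference of 0.45 in the pair of clone 42 and 0.18 in that of clone 48. Atf3, a stress-induced factor that pairs with Jun, gave 6485 (clone 42), 1969 (clone 48), 2802 (puroB) and 768 (puroD) (mean log2 difference 1.28 ± 0.31, SE, n = 2 clones per group; limma adjusted p = 0.134). Jun gave 3081, 2301, 2042 and 704 in the same order (1.15 ± 0.34; limma adjusted p = 0.259). PuroB exceeded puroD by a log2 difference of 1.87 for Atf3, more than either matched pair differed (1.21 and 1.36), and by 1.54 for Jun, between the 0.59 and 1.71 of its pairs. At a second tested Atf3 probe set the controls differed by 0.97, between the 1.44 and 0.39 of the pairs.

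Fos, the partner of Jun in AP-1, followed the order of lines clone 42, puroB, clone 48 and puroD, with signals of 2669, 838, 282 and 229. Its log2 differences were 1.67 and 0.30 in the pairs and 1.87 in puroB over puroD. Cebpd, an acute-phase C/EBP factor, gave 1818 (clone 42), 2174 (clone 48), 544 (puroB) and 1560 (puroD), with log2 differences of 1.74 and 0.48 and -1.52 between the controls. Neither passed in limma (adjusted p = 0.386 and 0.294). Ccl2 and Ccl7 differed from these 4 factors in that their control clones lay close together, at -0.21 and -0.42.

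**Figure D4:**
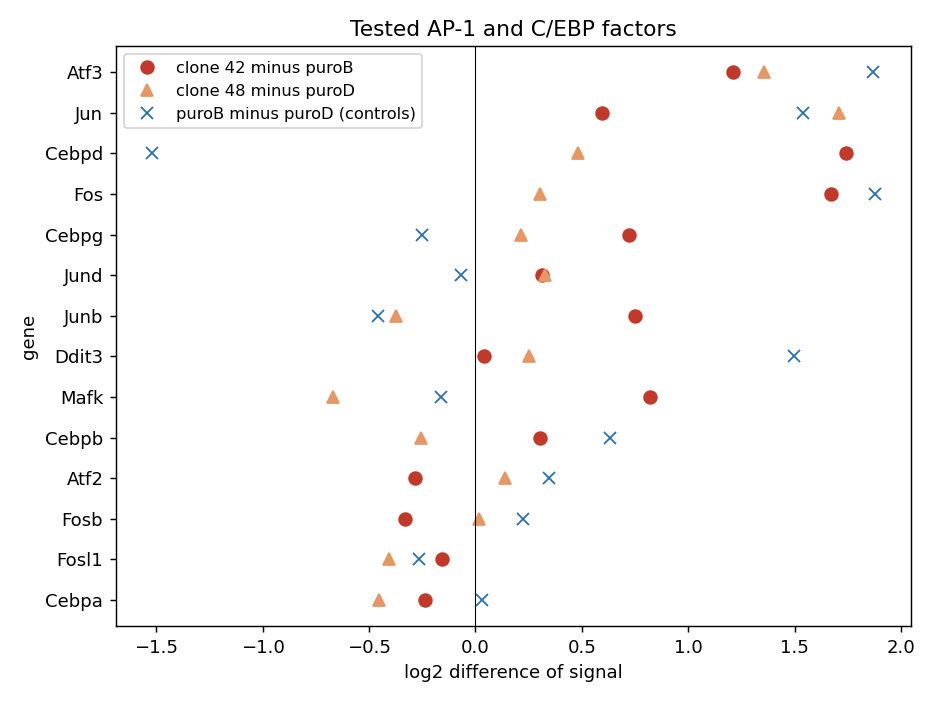
Log2 difference of signal for 14 tested AP-1 and C/EBP factors in the pair of clone 42 (red circles), the pair of clone 48 (orange triangles) and puroB over puroD (blue crosses). Atf3 and Fos, both with the cross at 1.87, and Ddit3 are among the genes whose cross lies to the right of both pairs.

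Of the NF-kappaB pathway genes 13 were tested. Both pairs were higher for 5 and lower for 4 (21.7% and 29.7% over all tested probe sets), and limma passed 0. The subunit gene Rela gave 2705 (clone 42), 2522 (clone 48), 2521 (puroB) and 2272 (puroD), a mean log2 difference of 0.13 ± 0.31 (SE, n = 2 clones per group). Nfkbia, the inhibitor that NF-kappaB itself induces, gave -0.25 and 0.47 in the pairs. Relb, another subunit, had -0.48 and -0.77. The receptor adaptor Tradd had -0.03 and 1.28, with clone 48 as its high line (1705, against 701 to 919 in the other three), and the kinase Ikbkb a mean of -0.42. Of 15 NF-kappaB target genes, 6 were above background on no array, among them Icam1 and Ptgs2. Ier3, an immediate early target, gave 1207 (clone 42), 821 (clone 48), 2324 (puroB) and 1689 (puroD), so that it ran against Ccl2 and Ccl7 (mean log2 difference -0.99 ± 0.31, SE, n = 2 clones per group; limma adjusted p = 0.275). Birc2 had -0.31 and Irf1 0.07.

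JAK-STAT genes, which act downstream of Il6 and Lif, were mostly above background, and 0 of 15 tested passed in limma. Pias3, an inhibitor of Stat3, had a mean log2 difference of 0.52, Socs1, a feedback inhibitor, -0.51, and the kinase Jak1 0.37. Other Pias3 probe sets, too dim to be tested, had 1.19 and -0.41, so the Pias3 probe sets disagree in sign. Stat3 itself gave 1157 (clone 42), 1092 (clone 48), 1566 (puroB) and 932 (puroD), and Socs3, the feedback inhibitor induced by gp130 signalling, 212, 266, 269 and 255 in the same order. The groups overlapped for both genes, and a second tested Socs3 probe set differed in sign, with a mean log2 difference of 0.61 against -0.14. Of 12 tested other cytokine and chemokine receptors, 0 passed in limma. Il1rap, the accessory chain of the interleukin 1 receptor, had -1.13 ± 0.43 (SE, n = 2 clones per group; limma adjusted p = 0.478), with 66.6 in clone 48 against 180, 237 and 241 in clone 42, puroB and puroD. Ifnar1, a chain of the type I interferon receptor, had 0.69. Il17ra was lower in both pairs, by log2 differences of -0.45 and -0.51 at its brighter probe set and -0.97 and -1.03 at the other.

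Markers of other cell types were read beside Ccl2 and Ccl7, because leukocytes and fibroblasts also make them. For 7 defining genes of microglia, macrophages and other leukocytes (Ptprc, Lyz2, Aif1, Adgre1, Itgam, Tyrobp and Fcer1g), 12 probe sets gave signals of 0.7 to 27.2, and 0 of them were above background on any array. These 7 were picked from a list of 18 microglia and macrophage genes. Over the whole list 8 were above background on all arrays (Cd68, Csf1r, Cx3cr1, C1qb, Cd14, Fcgr3, Laptm5 and Cd52) and 8 on none. C1qa (108.6 in puroB and 105.3 in puroD) and C1qc (134.7 and 167.4) were above background in both controls and lower in their Nurr1-labelled partners. The summed signal of the list was 1247 to 1580 in the Nurr1-labelled clones and 1753 to 1864 in the controls. Of 15 fibroblast and mesenchymal genes, 8 were above background on all arrays and 2 on none. Their summed signal was 28997 (clone 42), 20480 (clone 48), 13056 (puroB) and 21202 (puroD), highest in the line with the highest Ccl2 and Ccl7. S100a4, the brightest gene of the list, was left out after its values were seen. The sums were then 16450 (clone 42), 12271 (clone 48), 6674 (puroB) and 8700 (puroD). That is the order of lines of Ccl2 and Ccl7, but with S100a4 puroD lay above clone 48. The match of order rests on leaving out this gene, so nothing is read from it. Of the 8 tested, 3 were higher and 1 lower in both pairs, 5 had an unadjusted p under 0.05 and 0 passed in limma. The collagen gene Col3a1 gave 5020 (clone 42), 4010 (clone 48), 1288 (puroB) and 1751 (puroD), with a mean log2 difference of 1.58 ± 0.33 (SE, n = 2 clones per group; limma adjusted p = 0.0853). The matrix genes Col6a2 (1.00) and Postn (0.80) were also higher in both pairs. Col1a2 (mean 1.15) went opposite ways, with 2.36 in the pair of clone 42 and -0.07 in that of clone 48. Pdgfra, a growth factor receptor (mean -1.23), had -0.06 and -2.39 in the same order, with clone 48 at the floor. The part of these genes in the chemokine result was not tested. For 9 endothelial genes the summed signal was 3531 to 4235 in the Nurr1-labelled clones and 4403 to 4695 in the controls.

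The genes whose signals over the 4 arrays were most like those of a tested member were found by the Euclidean distance between log2 signals centred on their mean, over 5819 other probe sets. Nearest to Ccl7 were the histone gene H3c14 (distance 0.589), the matrix gene Tnc (1.33) and the autophagy gene Trp53inp2 (1.85), against a median distance of 3.67. H3c14 gave 5659 (clone 42), 470 (clone 48), 401 (puroB) and 405 (puroD), the same single high line. Nearest to Ccl2 were the pseudogene Tyms-ps (0.421), the sterol synthesis gene Fdft1 (0.450) and the ER chaperone gene Dnajb9 (0.507), against a median of 1.74. Nearest to Csf1, whose pattern was almost flat, were 1700037H04Rik (0.029), Ube2k (0.038) and Otud5 (0.038), against a median of 0.629. With 4 arrays many genes share a pattern, and these distances are a description of these lines.

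**Figure D5:**
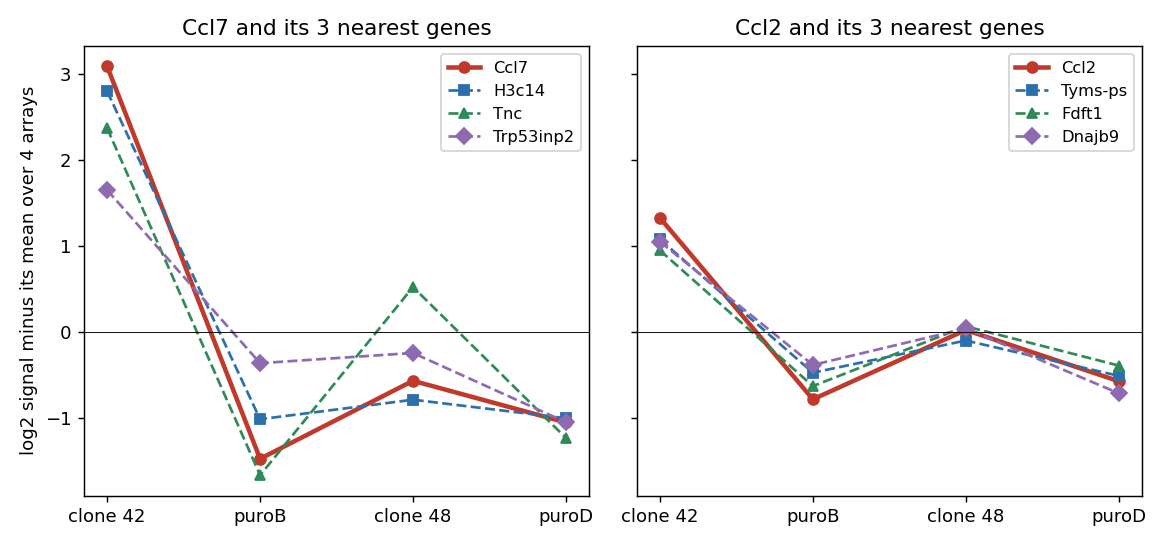
Log2 signal minus its mean over the 4 arrays (vertical) for Ccl7 and Ccl2 (red, solid) and the 3 probe sets nearest to each (dashed), by line; the lines joining points guide the eye. Clone 42 is the top point of every profile, and H3c14 follows Ccl7 most closely, at a distance of 0.589.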

How the data were processed

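Per the labels, total RNA was labelled with biotin and hybridised to Affymetrix arrays, 1 per clonal line. The authors' deposited values are linear intensity values, 1 MAS5 signal per probe set, as the submitters' processing notes name MAS5, with no version. Detection calls were not used here. The number of arrays limits the precision. Each probe set leaves 1 residual degree of freedom, which limma pools with a prior of 13.1 degrees from all tested probe sets. The p-values and SEs thus rest mostly on a spread pooled over probe sets, not on that of each gene between clones.

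Arrays were rescaled to a trimmed mean of 500 (2% cut from each end), signals under the 30th percentile were raised to it (40.3), and values were put on the log2 scale. Probe sets with at least 2 of 4 arrays above 145.05 were tested (6419, without 66 array controls) with limma 3.58.1 in R 4.3.3: lmFit with a term for the pair, then eBayes (trend = TRUE), Benjamini-Hochberg adjustment over all tested probe sets. The pairing comes from the labels; same-pair deviations correlated with r = 0.19 across probe sets. The fit was tested on simulated data. A gene is given by its brightest (tested, if any) probe set.

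Symbols came from the platform annotation, checked by Entrez identifier against RefSeq (10798 of 10814 matched; GRCm38.p6). Members and gene lists were chosen with earlier results of these data known. The text names all member probe sets, all measured receptors of the members, the 3 tested genes of largest mean difference in each other list of pathway genes and the 3 nearest probe sets per tested member; Fos, Ddit3, Rela, Nfkbia, Stat3, Socs3, Icam1, Ptgs2, Ccl6, Csf3, Il1a, Il1b, Tnf, Ifng, the cluster neighbours, Nr4a2 and the marker genes given with values were chosen after their values were seen. Ranges over alternatives are in the closing section.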

Additional observations from a re-analysis of the deposited data

Results flagged for a closer look

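For 3 members the 2 matched pairs went opposite ways; with 1 array per line this difference was not tested, and 48.7% of all tested probe sets (3124) also went opposite ways. The log2 difference in the pair of clone 42 exceeded that in the pair of clone 48 by 1.89 for Cxcl1 and by 0.64 for Cxcl12, and the same subtraction gave -0.70 for Csf1. Cxcl1 and Cxcl12 were too dim to enter the fit.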

How the results depend on the processing

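The count of probe sets passing in limma over both matched pairs, 7, was 0 with quantile normalization, without a floor, without a filter and with no replicate block. It was 17 with the floor at the median of all values, 49 with a filter on all 4 arrays and 51 with scaling to the median. The cause was not tested. Scaling to the median moved the median log2 difference of all tested probe sets from -0.04 to 0.13. Leaving out a clone leaves an arm of 1 clone and a line without its match, so no count of passing probe sets is given for it. Member differences with a clone left out compare the group means of log2 signals and set the pairing aside. The count of related genes passing, 0, was 1 with scaling to the median and 2 with the filter on all 4 arrays. The count of members higher in both pairs, 2, was 3 with quantile normalization and with scaling to the median, where Cxcl12 joined Ccl2 and Ccl7. It was 2 in the other 5 settings run. Members count here whether or not they pass the filter, so the settings that change the filter could not alter it. Leaving out a clone gives no such count. The mean differences of Ccl2 and Ccl7 kept their sign in all 8 alternatives, that of Cxcl1 in 7, that of Cxcl12 in 6 and that of Csf1 in 4. With the floor at the median, the difference of clone 42 over puroB went to 0 for Cxcl1 (from 0.55) and Cxcl12 (from 0.58), and that of puroB over puroD for Cxcl12 (from -0.69) to 0.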
